A study of Homo sapiens with 8 samples.

Results

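The initiator tRNA-Met genes carry the tRNA that reads the start codon, and 10 gene copies, 9 with its anticodon and 1 related copy with another, were followed in miCLIP data for NSun3 and NSun6 from HEK293, a long-established cell line of human embryonic kidney. The copies were chosen by position in hg19, 1 on chromosome 1, 8 on chromosome 6 and 1 on chromosome 17, and are numbered 1 to 10 in that order. They are 10 of 15803 genes, tRNA-like loci and copies in which a read began. HEK293 cells carried a transfected myc-tagged NSun3 (3 libraries) or a myc-tagged NSun6 (3 libraries), in each case the miCLIP mutant, which stays joined to the cytosine it would methylate, and were collected after 24 h. No library of untransfected cells was analysed here, so NSun6 was the comparator for NSun3, and a difference between them can lie in either enzyme. A further 2 samples, BS-seq of poly(A) RNA from HEK293 without a stated transfection, gave 1 table of methylated and unmethylated reads.

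A tRNA gene is transcribed by RNA polymerase III from promoter elements inside the gene, the A box in the D arm and the B box in the T arm. The transcript carries a leader before the tRNA and a trailer that ends in a run of U. RNase P cuts the leader, ELAC2 cuts the trailer, and TRNT1 adds CCA to the new 3′ end. Initiator tRNA-Met is then charged by the methionyl-tRNA synthetase and carried to the small ribosomal subunit by eIF2. The elongator tRNA-Met shares its anticodon CAT but delivers methionine inside the chain, and MT-TM encodes the single tRNA-Met of mitochondria. NSun3 is known to methylate the wobble cytosine of that mitochondrial tRNA, and NSun6 is known to methylate cytoplasmic tRNAs near the 3′ end.

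The copies are shown because their letters decide which reads can be placed. Of the 10 copies, 8 were identical over 72 nt. In the sequence of copy 1 (chr1:153643726-153643797, plus strand, hg19) the capitals mark the anticodon at bases 33 to 35 and the A at base 59. For copy 8 and copy 5 the capitals mark bases unlike copy 1.
copy 1: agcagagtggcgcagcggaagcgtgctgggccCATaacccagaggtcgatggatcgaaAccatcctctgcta
copy 8: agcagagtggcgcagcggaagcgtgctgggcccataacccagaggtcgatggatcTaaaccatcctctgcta
copy 5: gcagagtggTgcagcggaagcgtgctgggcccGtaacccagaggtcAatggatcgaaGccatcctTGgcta

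Copy 8 (chr6:27745664-27745735, plus strand) differed from copy 1 by G56T, a base of the T loop, counted from 1 at the 5′ end of the gene. Copy 5 (chr6:27271568-27271638, minus strand) lacked base 1, was 71 nt long and 90.3% identical, and differed by C11T, A34G, G48A, A59G, C67T and T68G. Its anticodon reads CGT, which pairs with threonine codons, so copy 5 goes against the name of the family and is called copy 5 here, not an initiator gene. It stays in sums over the copies, to which it adds 91 NSun3 reads and no NSun6 read. In copy 1 all 7 acceptor pairs, 4 D-stem pairs, 5 anticodon-stem pairs and 5 T-stem pairs could form. Bases in the text follow copy 1. Canonical tRNA numbering is 1 higher from the D loop on, so that the wobble cytosine at base 33 is position 34 and C47 is position 48.

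Of the 6 libraries, the NSun3 ones held 47352 to 138921 reads and the NSun6 ones 305392 to 467586. NSUN6 exon reads were present in every NSun6 library and in no NSun3 library. NSUN3 exon reads numbered 32 and 19 in NSun3 replicates 1 and 2 and 0 in the library labelled NSun3 replicate 3, and 8 were found in NSun6 replicate 3, so results that rest on the library labelled NSun3 replicate 3 are also given without it. Library replicates are separate samples by the labels, but whether they came from separate cultures is not given in the sources used here. An adjusted p then covers only the spread between these libraries.

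Reads that began in the copies were abundant with NSun3 and scarce with NSun6. Summed over the copies there were 35714, 16324 and 16801 reads for NSun3 replicates 1, 2 and 3, and 62, 45 and 45 for the NSun6 replicates. Scaled to 1000000 reads of the library (RPM), this was 257081, 307861 and 354811 RPM against 191, 96.2 and 147 RPM. The mean was 306584 ± 48877 RPM (SD, n = 3) for NSun3 and 145 ± 47.6 RPM (SD, n = 3) for NSun6, a ratio of 2114. With each listed position counted once, whatever its reads, the copies held 14496 and 137 of every 1000000 positions, a far smaller ratio. The lowest NSun3 library lay far above the highest NSun6 library (exact two-sided permutation test, p = 0.1, the smallest that 3 against 3 allows). Without the library labelled NSun3 replicate 3 the NSun3 mean was 282471 RPM. Read counts alone do not tell more bound molecules per cell from more cells or a larger recovery of RNA. RPM are shares of a library, so they also depend on how many of its reads lie elsewhere. No read lay on the opposite strand of any copy.

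The initiator copies took nearly all reads that NSun3 left in the nuclear tRNA-like loci counted here. A search by sequence found 418 such loci beside the copies, of which 141 held an NSun3 read and 274 an NSun6 read. Of the reads in all these loci together, the copies held 92.5%, 97.8% and 95.4% in the NSun3 libraries and 0.262%, 0.151% and 0.203% in the NSun6 libraries. The search found 9 of the 10 copies, and all 10 were counted. Other tRNA genes that it missed are not in these sums.

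**Figure D1:**
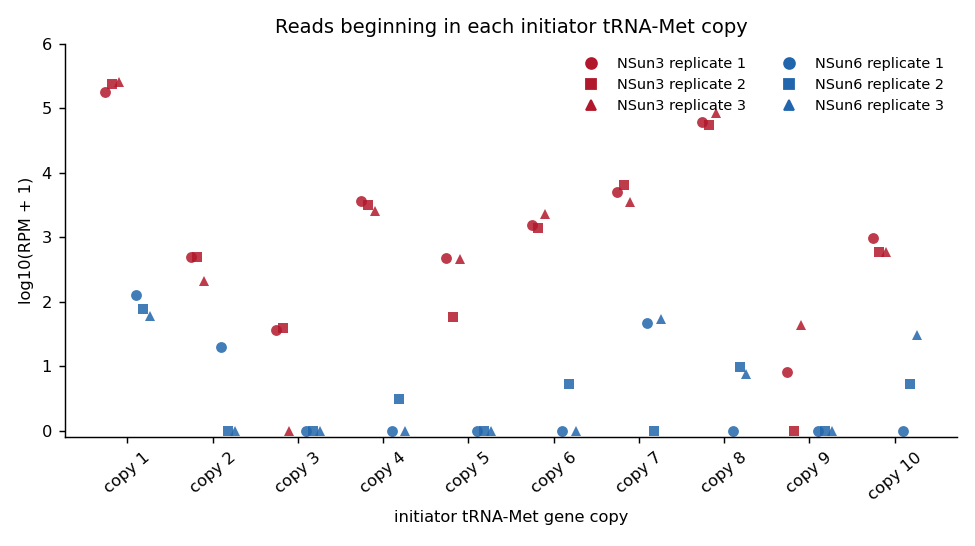
Reads beginning in each of the 10 copies, as log10(RPM + 1) on the vertical axis, with a point per library (red NSun3, blue NSun6, shapes for the replicates). Copies 1 and 8 stand highest with NSun3, copies 3 and 9 lowest, and in 8 copies all NSun3 points lie above all NSun6 points.

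Among the copies the reads were very unevenly spread, although 8 of them have the same letters. Copy 1 held 25391, 12756 and 12387 reads in the NSun3 libraries and 41, 36 and 18 in the NSun6 libraries. Copy 8 came next, with 8629, 2923 and 3956 NSun3 reads against 0, 4 and 2. Copy 7 (chr6:27560600-27560671, minus strand) held 695, 338 and 167 NSun3 reads against 15, 0 and 16. These values rank copy 1 above copy 8 and copy 8 above copy 7 in every NSun3 library.

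Copy 4 (chr6:26330529-26330600, minus strand) held 505, 170 and 120 NSun3 reads and 1 NSun6 read. Copy 6 (chr6:27300764-27300835, minus strand) held 218, 75 and 109 NSun3 reads and 2 NSun6 reads. Copy 10 (chr17:80452597-80452668, minus strand) held 135, 31 and 28 NSun3 reads against 0, 2 and 9. Below them, copy 2 (chr6:26286754-26286825, plus strand) had 69, 26 and 10 NSun3 reads against 6, 0 and 0, and copy 5 had 66, 3 and 22 against none. At the bottom, copy 3 (chr6:26313352-26313423, minus strand) had 5, 2 and 0 NSun3 reads and copy 9 (chr6:27870271-27870342, minus strand) had 1, 0 and 2. Neither had an NSun6 read.

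In mean level, copy 1 reached 228312 ± 40815 RPM (SD, n = 3) with NSun3 and copy 8 reached 66928 ± 14808 RPM. Copies 7 and 4 followed at 4968 ± 1424 and 3125 ± 555 RPM, and copy 6 at 1762 ± 474 RPM. Copies 10, 2 and 5 lay at 716 ± 222, 399 ± 163 and 332 ± 239 RPM, and copies 3 and 9 at 24.6 ± 21.3 and 16.5 ± 22.6 RPM. The NSun3 libraries of neighbours in this order overlapped between copies 7 and 4, 2 and 5, and 3 and 9, and between no others. Copy 1 made up 95.3% ± 1.31 of the NSun3 reads of the 8 identical copies, and 65.3% ± 22.98 of their NSun6 reads.

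Counts per copy were compared in a fit over 1793 genes, tRNA-like loci and copies with the quasi-likelihood test of edgeR. Of the 10 copies 8 passed its filter on low counts, and all of these were called higher in NSun3 (adjusted p under 0.05). With a replicate block in edgeR, copies 2, 5, 6 and 10 lost their calls (adjusted p = 0.0513 each). Over all features tested 4.63% were called higher in NSun3. Copies with few or no NSun6 reads could pass the filter only where NSun3 was high, which fixed the direction of their calls, so the count is a description. By library values without a fit, 8 of the 10 copies had every NSun3 library above every NSun6 library, against 4.24% of the features tested. The fitted log2 fold changes are relative to a scaling in which the median feature stood at -7.29, so that a value of 0 is itself far above most features.

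Copy 1 was the only copy with reads in all 3 NSun6 libraries. On the log2 scale it reached 12.53 ± 4.57 (SE, edgeR adjusted p = 0.0355), and lost its call when mtDNA reads were left out (edgeR adjusted p = 0.0605). Over 12 alternatives its log2 fold change ranged from 10.39 to 13.68. In level it stood at 228312 ± 40815 RPM with NSun3 and 87.5 ± 35.02 RPM with NSun6 (SD, n = 3).

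The other 7 tested copies passed the filter through their NSun3 reads, so their levels are given as a description and their calls are not counted as results. With NSun6, copy 8 stood at 5.03 ± 4.47 RPM, copy 7 at 32.9 ± 28.7 RPM, copy 10 at 11.2 ± 15.9 RPM and copy 2 at 6.17 ± 10.7 RPM, each far below its NSun3 level above. Copy 4 was 3644 times higher in NSun3 by pooled RPM (95% exact interval for counting error only, 652 to 144117). For copy 6 this ratio was 921 (253 to 7634). Copy 5, with no NSun6 read, was at least 39.1-fold higher, against a floor of 3 reads per library. Copies 3 and 9 did not pass the filter and were not tested.

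As a share of all reads in the copies, copy 8 was the only copy besides copy 5 whose NSun3 and NSun6 libraries did not overlap. It held 21.9% ± 3.45 with NSun3 and 4.44% ± 4.44 with NSun6 (exact two-sided permutation test, p = 0.1, adjusted over 10 copies p = 0.5). Without the library labelled NSun3 replicate 3 the NSun3 share was 21.03%. The share of copy 1 was 74.3% ± 3.56 against 62.0% ± 20.3 (exact permutation p = 0.5). The NSun6 shares rest on 152 reads in all.

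**Figure D2:**
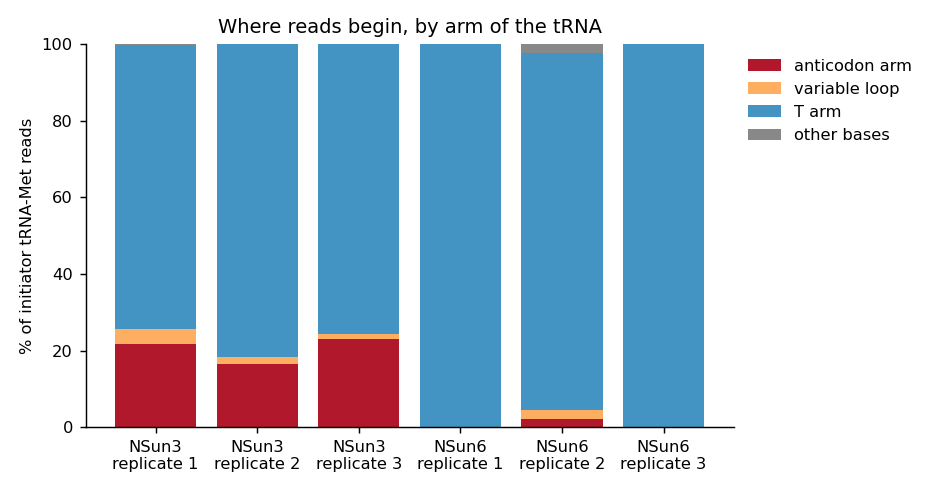
Share of the reads in all 10 copies that began in the anticodon arm, the variable loop, the T arm and elsewhere, as percent on the vertical axis for each of the 6 libraries. T-arm starts lead in every library, and the anticodon arm holds 16.4% to 23.1% with NSun3 and 0% to 2.22% with NSun6.

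Along the tRNA, the starts that could be placed fell mainly in the T arm and the anticodon arm. The T arm held 26502, 13334 and 12694 NSun3 reads, 77.1% ± 3.99 (SD, n = 3), and 62, 42 and 45 NSun6 reads, 97.8% ± 3.85. The anticodon arm held 7790, 2683 and 3880 NSun3 reads, 20.4% ± 3.53, and 0, 1 and 0 NSun6 reads, 0.741% ± 1.28. For these arms the enzymes did not overlap (exact two-sided permutation tests, p = 0.1 each, adjusted over 8 arms p = 0.2). That separation came from copy 8: without it the T arm held 96.9% ± 1.88 of the NSun3 reads and 98.4% ± 2.82 of the NSun6 reads, which overlapped (exact permutation p = 0.5), and the anticodon arm 0.0113% and 0%. Pooled over the NSun6 libraries, 1 of 152 reads began in the anticodon arm, 0.658% (95% exact binomial interval 0.0167% to 3.61%). Without the library labelled NSun3 replicate 3 the anticodon arm held 19.1% of the NSun3 reads.

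The anticodon-arm reads came almost wholly from copy 8. Of 14353 NSun3 reads that began there, 14346 lay in copy 8 and the other 7 in copy 5. With copy 1 left out, the anticodon arm held 79.5% ± 7.26 of the NSun3 reads. The variable loop held 1339, 300 and 205 NSun3 reads against 0, 1 and 0 NSun6 reads, 2.27% ± 1.32 and 0.741% ± 1.28, which overlapped (exact permutation p = 0.3). Few starts lay in the D arm (12 NSun3 reads) or the 5′ strand of the acceptor stem (72), and all of them belonged to copy 5. In every other copy the bases of these stretches need a read of over 30 nt to have a single place in hg19. In the 8 identical copies the bases of the anticodon arm need over 30 nt as well. The arm shares are therefore shares of the starts that could be placed, not of all starts along the tRNA.

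**Figure D3:**
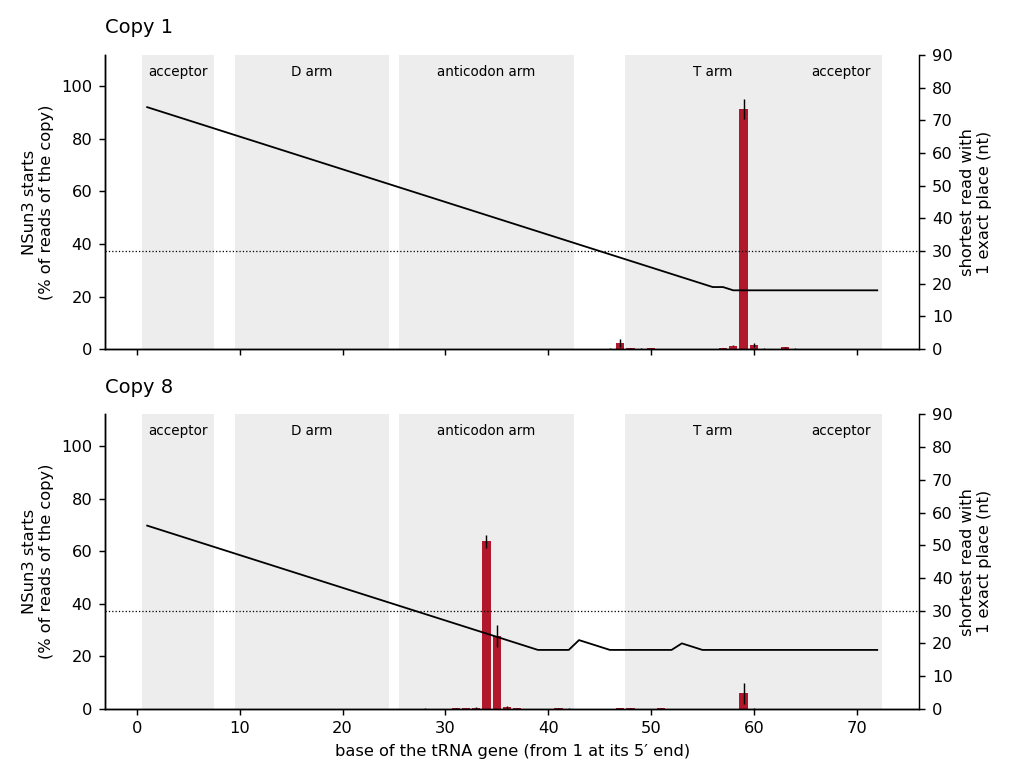
Starts at each base of copies 1 and 8, as percent of the NSun3 reads of the copy (left axis, bars are means and lines SD of 3 libraries), with the shortest read that has 1 exact place in hg19 from that base (right axis, black line; the dotted line is at 30 nt). Copy 1 peaks at base 59, copy 8 at bases 34 and 35, and in copy 8 the black line drops below 30 nt much nearer the 5′ end.

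In copy 1 the starts formed a main peak and a small one. Base 59, an A in the T loop followed by C60, held 22118, 11976 and 11561 NSun3 reads, and 41, 33 and 18 NSun6 reads. Thus 92 of the 95 NSun6 reads of copy 1 lay at the same base as the NSun3 peak. C47, in the variable loop, is the cytosine that NSun2 is known to methylate in many tRNAs. Starts at C47 itself numbered 1057, 225 and 156 with NSun3, with none for NSun6. Base 48 after it held 156, 29 and 32 NSun3 reads and 0, 2 and 0 NSun6 reads.

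In copy 8 the peak stood at the anticodon. Base 34, the A after the wobble cytosine, held 5489, 1792 and 2618 NSun3 reads and no NSun6 read. Base 35, the T of the anticodon, held 1992, 855 and 1213 NSun3 reads and no NSun6 read. The ratio of base 35 to base 34 was 0.363, 0.477 and 0.463 in the NSun3 libraries. Base 59 of copy 8 held 777, 220 and 58 NSun3 reads, 6.0% ± 4.0 of the copy, so the peak that led copy 1 was present in copy 8 as a minor one.

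Base 59 also led in 4 of the other identical copies. It held 95.9% of the pooled NSun3 reads in copy 7, 86.5% in copy 4 (with a further 6.4% at base 58), 79.0% in copy 2 and 75.9% in copy 6. Copy 10 differed, with 54.1% at C47 (75, 13 and 17 reads) and 39.2% at base 59 (53, 14 and 9 reads), and 5.2% at base 46. Starts at C47 also made up 15.7% in copy 6 and 14.3% in copy 2. The 7 NSun3 reads of copy 3 lay at base 59 (3 reads), base 48 (3) and C47 (1), and the 3 reads of copy 9 lay at bases 49, 50 and 55, with none at base 59. Over the 8 identical copies, base 59 held 91.2% ± 3.64 of the NSun3 reads and 92.5% ± 6.22 of the NSun6 reads, which overlapped. C47 held 2.62% ± 1.52 of their NSun3 reads and no NSun6 read.

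Copy 5 had another pattern. Its first base, base 2 of the common numbering, held 54, 1 and 13 NSun3 reads, 74.7% of the pooled reads of the copy. Base 34, where it carries G, held 5, 0 and 1 reads. Although nearly every base of copy 5 has a single place at 18 nt, its last NSun3 start was at base 35, and base 59 held none.

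The files list a position only where a read had a single best place, so the letters of the copies set which starts can appear. The deposited reads were at least 18 nt long and were aligned with up to 1 mismatch. For each base of each copy, the shortest read from that base with a single exact place in hg19 was computed. In copy 1 a read from base 34 needs 41 nt, since it must reach 2 nt past base 72. From C47 it needs 28 nt, and from base 58 on 18 nt are enough. In copy 8 a read from base 34 needs 23 nt and one from base 35 needs 22 nt, and each then ends at base 56, the base that sets this copy apart.

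**Figure D4:**
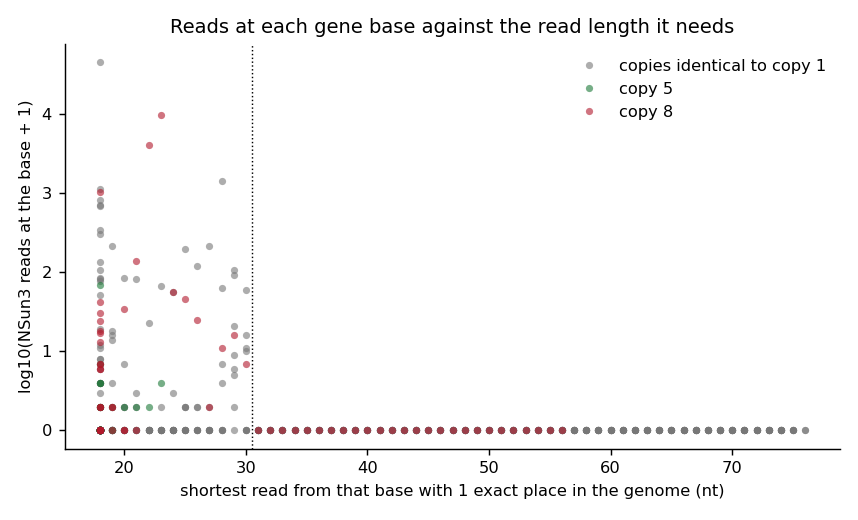
NSun3 reads at each gene base of the 10 copies, as log10(reads + 1) on the vertical axis, against the shortest read with 1 exact place in hg19 from that base in nt (gray identical copies, green copy 5, red copy 8). Reads occur at bases that need up to 30 nt, and every base that needs more, right of the dotted line, is at 0.

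All reads in the copies began at bases from which a read of at most 30 nt has a single place. Of the 719 gene bases, 385 need over 30 nt, and these held 0 reads in all 6 libraries. Of 194 bases that need 18 nt, 49 held a read, and of 140 bases that need 19 to 30 nt, 63 did. In the NSun3 libraries 74.9% of the reads lay at the first of these groups and 25.1% at the second. In the identical copies the anticodon bases are among the 385, so that a start there could be listed only from a read longer than 30 nt. Read lengths are not in the files, and whether such reads were present cannot be told from them. A read of any identical copy in which base 56 was read as T would carry the letters of copy 8. Read sequences were not used here, so a T in the RNA and a T in the read alone cannot be told apart. The listed position was taken as the first base of the read. If it is the base before the read, each length becomes that of the next base, in the identical copies mostly 1 nt shorter or the same. At the edge of the gene the change is larger. In copy 1, 81 NSun3 reads, all in replicate 1, are listed 2 nt before base 1, where 18 nt are enough. The next base needs 75 nt. Which reading holds was not tested.

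Trailers are shown because reads from base 59 have to run into them. The capitals mark bases 59 to 72 and the small letters the 20 nt that follow in hg19.
copy 1: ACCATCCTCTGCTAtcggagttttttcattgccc
copy 7: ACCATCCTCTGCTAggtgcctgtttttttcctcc
copy 4: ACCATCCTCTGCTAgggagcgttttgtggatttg
copy 6: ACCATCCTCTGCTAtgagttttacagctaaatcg
copy 8: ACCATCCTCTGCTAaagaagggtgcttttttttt
copy 9: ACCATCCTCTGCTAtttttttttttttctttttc

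From base 59 to the end of the gene there are 14 nt, and with an added CCA 17 nt, below the 18 nt minimum. A read of 18 nt from base 59 thus spans 4 nt of the trailer. The first run of TTTT, the terminator signal of RNA polymerase III, starts 6 nt after the gene in copy 1, 8 nt in copy 7, 7 nt in copy 4, 4 nt in copy 6, 11 nt in copy 8 and 0 nt in copy 9. In copy 3, which like copy 9 held few reads, it starts 14 nt after the gene, the farthest of the 10 copies. Of 58 sequences that began in copy 1 and ended in CCA, 56 had no place in hg19 within 1 mismatch, and none had a place in a copy. Of these sequences 1, from base 57 and 19 nt long, had a single place with 1 mismatch outside the copies (chr6:56187665-56187683, plus strand), within which 36, 1 and 30 NSun3 reads and no NSun6 read began. Of 57 that ended in CC only, 55 had copy 1 as their single place, each with 1 mismatch. The 8 identical copies share the gene letters of these sequences. A read of such a sequence would thus be listed in copy 1 whichever of them it came from. The 55 sequences begin at bases 1 to 55, so none begins at base 59, the main peak of copy 1. From base 59 a sequence that ends in CC is shorter than 18 nt. Within the trailers themselves no NSun3 read began, and only 2 reads of NSun6 replicate 2, in the trailer of copy 6, did.

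Leader reads were present with NSun3 and near absent with NSun6. In the 50 nt before the copies there were 2348, 72 and 518 reads in the NSun3 libraries and 0, 4 and 1 in the NSun6 libraries. This was 9733 ± 7842 RPM (SD, n = 3) against 3.94 ± 4.32 RPM (exact two-sided permutation test, p = 0.1). Without the library labelled NSun3 replicate 3 the NSun3 mean was 9130 RPM. As a share of leader and gene reads together, leader reads made up 6.17%, 0.439% and 2.99% with NSun3 and 0%, 8.16% and 2.17% with NSun6, so that the share did not separate the enzymes.

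The leader starts clustered just before the gene. Their last 20 nt are shown with the first 10 nt of the gene in capitals.
copy 1: gagaaattttagttctagatAGCAGAGTGG
copy 4: ctgggacctgtgactcgcgtAGCAGAGTGG
copy 6: gtggtcttcagaaaccgcttAGCAGAGTGG
copy 8: gtagaagcgtgttttccgttAGCAGAGTGG
copy 2: gaccgtgtgcctggcagaacAGCAGAGTGG

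In copy 1 the base 3 nt before base 1 held 1957, 72 and 484 NSun3 reads and 0, 3 and 0 NSun6 reads. Starts 3 nt before base 1 also held 9, 0 and 30 NSun3 reads in copy 4, 17, 0 and 3 in copy 6, 18, 0 and 1 in copy 8, and 17, 0 and 0 in copy 9. The leading leader start of copy 9 lay 1 nt before base 1, with 19, 0 and 0 NSun3 reads. Copy 2 had 32 NSun3 reads 4 nt before base 1, all in NSun3 replicate 1. Starts 3 nt before base 1 made up 95.3% ± 8.11 of the NSun3 leader reads over all copies. At each of these leader bases 18 nt were enough for a single place. Nearer starts could be listed in some copies only: a read from the base 1 nt before the gene needs 57 to 77 nt in 8 copies, and one from 2 nt before needs 58 to 78 nt in 5 copies, so that the share is of the starts that could be placed. The levels rest largely on NSun3 replicate 1, and in NSun3 replicate 2 only copy 1 had leader reads.

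Each start was also given to the closest cytosine within 2 nt, the rule in the methods of the study. Of 198 cytosines in the copies, 46 received a read. With over 50 RPM in at least 2 of 3 libraries, 25 cytosines in 8 copies were high-confidence sites for NSun3, and 1 was for NSun6. Of all 92350 cytosines with an assigned read, 0.766% passed this rule for NSun3 and 2.04% for NSun6. C60, which takes the starts at base 59, passed in 7 copies (1, 2, 4, 6, 7, 8 and 10) and C47 in 6 (1, 2, 4, 6, 8 and 10). The others were C55, C61, C64 and C65 of copy 1, C55 of copy 4, C3 of copy 5, and C26, C31, C32, C33, C38 and C40 of copy 8. Some sites rest on few NSun3 reads, such as C55 of copy 4 (9, 4 and 0), C47 of copy 4 (7, 7 and 0) and C65 of copy 1 (12, 4 and 2). The NSun6 site was C60 of copy 1, with 41, 33 and 18 NSun6 reads. By the same rule C47 took 0, 3 and 0 NSun6 reads in copy 1 and 0, 1 and 2 in copy 8.

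In the fit over 1775 cytosines, 19 cytosines of the copies were tested and all 19 were called higher in NSun3 (edgeR adjusted p under 0.05). Over all cytosines tested 16.5% were called higher in NSun3. Most of the 19 had few or no NSun6 reads and entered the fit through NSun3, which fixed their direction. C60 of copy 1 stood at 11.56 ± 1.73 as log2 fold change (SE, edgeR adjusted p = 6.3e-05). It was the only one of the 19 with reads in all 3 NSun6 libraries. C60 of copy 7 held 676, 327 and 166 NSun3 reads against 15, 0 and 16, and C60 of copy 10 held 56, 14 and 9 against 0, 2 and 7. In copy 8 the wobble cytosine C33 had no NSun6 read and was among the 8 high-confidence sites of that copy. Sites without an NSun6 read included C64 of copy 1, at least 251-fold higher in NSun3, and C55 of copy 1, at least 157-fold higher, again against 3 reads per library. These bounds fell to 166-fold for C64 without the library labelled NSun3 replicate 3 and to 92.1-fold for C55 without NSun3 replicate 1. Copy 1 held 95 NSun6 reads in all and copy 8 held 6. The lack of an NSun6 read at such a site therefore says little about the site beyond the level of its copy.

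**Figure D5:**
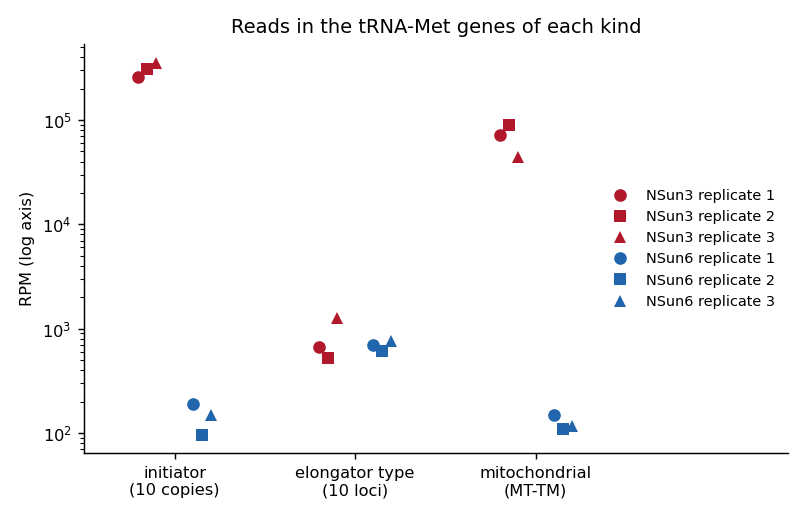
RPM on a log axis in the initiator copies, the elongator-type loci and MT-TM, with a point per library (red NSun3, blue NSun6, shapes for the replicates). Initiator copies and MT-TM lie far higher with NSun3 than with NSun6, while the elongator-type points of the enzymes overlap.

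Elongator tRNA-Met, summed over its loci, was at overlapping levels with both enzymes. The search found 10 loci with the anticodon CAT that begin with GCC like elongator tRNA-Met. These held 92, 28 and 60 NSun3 reads and 225, 286 and 233 NSun6 reads, or 819 ± 394 and 690 ± 75.8 RPM (SD, n = 3), which overlapped (exact two-sided permutation test, p = 0.9). Without the library labelled NSun3 replicate 3, which alone stood at 1267 RPM, the NSun3 mean was 595 RPM, below that of NSun6. For each elongator read there were 388, 583 and 280 initiator reads in the NSun3 libraries and 0.276, 0.157 and 0.193 in the NSun6 libraries. The shortest read with a single place was not computed for the elongator-type loci. How many of their starts could not be placed is therefore not known here, and these ratios are of placed reads only. A further 2 loci with CAT, of other sequence, held no read.

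Single elongator loci are given by reads and level. The locus with the most NSun3 reads held 60, 17 and 60 of them and 73, 65 and 48 NSun6 reads, or 673 ± 517 against 174 ± 45.5 RPM, and was called higher in NSun3 (edgeR log2 fold change 2.85 ± 0.65, adjusted p = 0.00679). Without the library labelled NSun3 replicate 3 its NSun3 mean was 376 RPM (edgeR adjusted p = 0.0132). The call was lost with DESeq2 (adjusted p = 0.192) and with a replicate block in edgeR (adjusted p = 0.313). Its log2 fold change ranged from 0.90 with DESeq2 to 4.18 with a scaling that left out the reads of the copies. The locus at chr6:28921042 held no NSun3 read and 67, 51 and 57 NSun6 reads, and so entered the fit through NSun6 alone. The one at chr16:87417628 held 27, 9 and 0 NSun3 reads and 78, 114 and 94 NSun6 reads, or 121 ± 106 against 264 ± 37.8 RPM, and was not called (edgeR adjusted p = 0.623). In the locus at chr6:28912352 there were 3, 2 and 0 against 0, 26 and 17 reads, and in that at chr16:71460396 no NSun3 read against 6, 29 and 15. Of the remaining 5 loci, 4 held no read and 1 held 2 NSun3 and 4 NSun6 reads.

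MT-TM, the gene that NSun3 is known for, held 10002, 4720 and 2089 NSun3 reads and 48, 51 and 36 NSun6 reads. This was 68377 ± 22668 RPM against 125 ± 20.5 RPM (exact two-sided permutation test, p = 0.1). In every NSun3 library the initiator copies together held more reads than MT-TM. The anticodon arms are shown for comparison, with the anticodon in capitals.
initiator tRNA-Met: ctgggccCATaacccag
MT-TM: tcgggccCATaccccga
elongator tRNA-Met: tcagtctCATaatctga

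Base by base, 12 of the 17 letters of the arm were the same in MT-TM as in the initiator, with an unbroken run of 9 nt, GGGCCCATA. The elongator arm (chr6:28921072-28921088, minus strand) shared 8 of 17 letters, with a run of 5 nt. Starts lay right after the wobble base in copy 8, at bases 34 and 35. Such starts also occurred in elongator-type loci, with both enzymes: at base 35, after the wobble base 34, the locus with the most NSun3 reads held 43, 11 and 0 NSun3 and 5, 14 and 14 NSun6 reads, and that at chr16:87417628 held 16, 0 and 0 NSun3 and 4, 2 and 6 NSun6 reads. In MT-TM, where the wobble base is base 31, the leading listed start was at base 40 (2533, 973 and 489 NSun3 reads). Base 38 held 1417, 693 and 414 NSun3 reads and base 26 held 1444, 648 and 125, and no start was listed at base 31. The shortest read with a single place was not computed for MT-TM. Which of its bases can show a start is therefore not known here.

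Starts 14 bases from the 3′ end, the place of base 59, were not limited to the initiator. In the elongator-type loci this place held 61.3%, 69.2% and 62.7% of the NSun6 reads, and 28.3%, 35.7% and 100% of the NSun3 reads. Over all 418 tRNA-like loci beside the copies, the elongator-type loci among them, it held 4.97% ± 0.345 of the NSun6 reads and 21.4% ± 7.14 of the NSun3 reads. Of those 418 loci, among the ones with at least 10 reads, it was the leading start in 49 of 173 with NSun6 and in 11 of 52 with NSun3. In the copies it was the leading start in 5 of 8 with NSun3 and in 3 of 3 with NSun6.

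Besides the copies, the tRNA-like locus highest with NSun3 was 1 on chromosome 15 (chr15:89878304, anticodon TCG), with 1088, 110 and 165 NSun3 reads against 11378, 14594 and 11791 NSun6 reads. By mean NSun3 level, a locus with TTG (chr17:47269890) came next, at 174, 0 and 86 against 140, 65 and 116 reads, or 1023 against 317 RPM (edgeR adjusted p = 0.124). After it came the elongator-type locus called higher in NSun3, at 673 RPM. A locus with CCA (chr17:19411494) followed, at 75, 39 and 26 against 53, 63 and 60 reads, or 608 ± 110 against 165 ± 30.9 RPM. It was called higher in NSun3 (edgeR log2 fold change 3.17 ± 0.75, adjusted p = 0.00765). The call was lost with DESeq2 (adjusted p = 0.136) and with a replicate block in edgeR (adjusted p = 0.303). Its log2 fold change ranged from 0.93 with DESeq2 to 4.18 with a scaling that left out the reads of the copies. Last of these 5, a locus with AAG (chr14:21078291) held 0, 0 and 66 NSun3 reads, all in the library labelled NSun3 replicate 3, against 11, 0 and 14. The highest of these 5 stood at 4464 ± 3001 RPM with NSun3. By mean level, copies 1 and 8 lay far above it, copy 7 near it, and the other 7 below it. The mean of the locus rests largely on NSun3 replicate 1, so its order beside copies 7 and 4 depends on the library. In NSun3 replicate 2 copies 7 and 4 held 338 and 170 reads against its 110.

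The profiles over the 6 libraries most like that of the summed copies were sought among 298 features with at least 50 RPM in NSun3. By root mean square difference of centred log2(RPM + 1), the nearest was MTCYBP36, a nuclear pseudogene of an mtDNA gene, at 0.84. It held 91, 41 and 36 NSun3 reads and no NSun6 read. ENSG00000229855 followed at 0.86, LINC00486 at 0.91, MT-TM at 1.11 and MALRD1 at 1.13. MALRD1 held 630, 189 and 471 NSun3 reads against 2, 6 and 1.

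Genes that make, process, modify, charge and deliver the initiator were read as a list of 44. Reads were found in 40 of them, with 8 NSun3 and 1548 NSun6 reads in all, and 5 passed the filter on low counts. All 5 were called lower in NSun3 (edgeR adjusted p under 0.05), where 83.4% of all features tested were called lower, and their median log2 fold change was -7.98 beside -7.29 over all features. None had an NSun3 read, so they passed the filter through NSun6 alone and their direction was fixed by it. GTF3C2, a subunit of TFIIIC that binds the promoter inside the tRNA gene, held 82, 89 and 76 NSun6 reads and was at least 4.89-fold lower. POLR3C, a subunit of RNA polymerase III, held 53, 70 and 46 (at least 3.28-fold), and RPP38, a protein of RNase P, held 45, 86 and 53 (at least 3.51-fold). The others were EIF1AX, a factor of start codon selection, with 19, 38 and 24 NSun6 reads, and TRMT1, a tRNA guanosine methyltransferase, with 31, 36 and 20.

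BS-seq reached the copies too thinly for a methylation level. Of the 198 cytosines, 51 had a read, in copies 3, 5 and 8 only, and none was covered by over 5 reads. The deepest coverage was 3 reads, in copy 3. There C47 was methylated in 1 of 3 reads, 33.3% (95% exact binomial interval 0.840% to 90.6%), and C55 likewise in 1 of 3. Copy 8 was covered by 1 read, methylated at C47 and at no other cytosine. In copy 5 no cytosine was methylated in its 2 reads. The table does not separate the samples, so these values have no replicate error.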

How the data were processed

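miCLIP was measured in 6 libraries and BS-seq in 2 samples. Per the labels and the methods of the study, reads sharing a random barcode were collapsed, those of at least 18 nt were aligned to hg19 with Bowtie (up to 1 mismatch, unique in the best class), and the authors deposited read counts for each position. BS-seq was aligned with Bismark, and the authors deposited 1 table that lists, per cytosine, how many reads were methylated or not as counts, and the methylated percent. The files have no strand column. Each runs over the chromosomes a second time, and this second run was taken as the minus strand. Each listed base was taken as the start of its reads. Intervals and floors cover counting error only.

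Members and lists were chosen with earlier results of these data known. Reads were summed per copy, base and arm and in 50 nt flanks. All copies are named, with bases that hold at least 5% of the NSun3 reads of a copy, high-confidence cytosines, loci with the anticodon CAT, MT-TM, the 5 other tRNA-like loci highest in NSun3, the 5 features nearest in profile, and called genes of the list. The annotation held no nuclear tRNA genes, so tRNA-like loci were found by the B box motif (up to 1 mismatch) and stem pairing in GRCh37, the source of all sequences. This search found 9 of the 10 copies. Counts were fitted with edgeR 4.0.16 (R 4.3.3, TMM, filterByExpr, quasi-likelihood test, Benjamini-Hochberg). The fit was tested on simulated data in which as many features were raised as lowered. In the real data most features were lower in NSun3, so that test does not cover the scaling or the calls there. SE is the log2 fold change over the square root of F. DESeq2 1.42.0, other scalings and filters, a replicate block and leaving out each library were alternatives, and 3 more were added after seeing the data. Permutation tests were exact and two-sided.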

Additional observations from a re-analysis of the deposited data

How the results depend on the processing

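Correlations of same-numbered deviations from the group means were 0.021, 0.070 and 0.0019. NSun3 replicate 3 correlated more with NSun6 replicate 1 than with its own number. Most features were far lower in NSun3, so these values cannot tell whether the replicate numbers pair the libraries. With a replicate block 4 of the 8 copies tested were called in place of 8, and over all features 14 in place of 1579. The 4 others, copies 2, 5, 6 and 10, had adjusted p = 0.0513 in edgeR with that block. The 19 cytosines all stayed called. Over all features DESeq2 called 3296, no filter 4182 and leaving out a library 1221 to 2668. The median log2 fold change over all features moved from -7.29 to -7.64 with RLE scaling. Without a library, 8 copies and 17 to 22 cytosines were called, the mean NSun3 level of the copies was 282471 to 331336 RPM, and the leader level was 6149 to 13921 RPM. NSun6 high-confidence cytosines numbered 2 at over 20 RPM and 0 at over 100 RPM. At a coverage over 0 reads 51 cytosines had a BS-seq value. Among the shares, signs turned for small ones. With the start column as the position these were the 5′ acceptor strand (NSun3 0.102% against 0.725%) and the variable loop (2.32% against 5.49%), the latter also without copy 1 (1.37% against 3.70%). The others were the 3′ acceptor strand without NSun6 replicate 2 (0.0327% against 0%, range of NSun3 values without a library 0.0182% to 0.0431%), copy 2 without NSun6 replicate 1 (0.137% against 0%, range 0.109% to 0.176%), copy 4 without NSun6 replicate 1 or 3 (1.06% against 1.11%, range 0.878% to 1.23%), and copy 6 without NSun6 replicate 2 (0.573% against 0%, range 0.535% to 0.630%) or with each position counted once (7.69% against 6.06%). The causes were not tested. NSun6 shares rest on 152 reads.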
